A study of Homo sapiens with 6 samples.

Results

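The genes described here encode the machinery of the lysosome: 37 genes for its hydrolases, membrane proteins and proton pump, with a pair of transcription factors that control such genes. They were chosen by their HGNC symbols from a hand-made list, and all 37 were found among the 20345 genes of the deposited table. RNA-seq was done on SW1990 cells, a human pancreatic cancer line, in 2 groups of 3 libraries, biological replicates according to the series text. The control group expressed an shRNA without a target, the other group an shRNA against LRRC8A, in libraries titled sh3. Cells of both groups had been transduced with the pLKO.1 lentiviral vector and selected with puromycin as stable lines. Where 1 such line gave all libraries of a group, p-values cover culture-to-culture spread only. The LRRC8A shRNA libraries share the 1 title sh3, and the batch label is the same for all 6 libraries.

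Lysosomes digest proteins, glycans and lipids with acid hydrolases, which reach them mainly through mannose 6-phosphate receptors. The vacuolar proton pump (V-ATPase) keeps their lumen acidic, and heavily glycosylated proteins such as LAMP1 and LAMP2 line their membrane. The transcription factors TFEB and TFE3, of the MiT/TFE family, bind promoters of many of these genes through an E-box and are held in the cytoplasm by mTORC1 when nutrients are ample. Pancreatic ductal cancer cells are known to rely on lysosomal breakdown of scavenged and autophagic cargo. Every volume-regulated anion channel of the cell surface needs LRRC8A as a subunit, and LRRC8 channels have also been described in the lysosomal membrane.

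The libraries held 37052641 to 42937612 counts. The target itself fell: LRRC8A was at 75.6 ± 5.01 CPM (counts scaled to library size; SD, n = 3) in controls and at 40.1 ± 2.03 CPM after knockdown (edgeR log2 fold change -0.92 with SE 0.06, adjusted p = 1.46e-08). The epithelial markers EPCAM, CDH1, KRT8, KRT18 and KRT19 were at 334 CPM or more in every library, whereas the ductal keratin KRT7 reached at most 1.39 CPM. Of 19 markers of leukocytes, fibroblasts, endothelium and non-ductal pancreas in the table, 15 stayed under 1 CPM in all 6 libraries. PTPRC, the gene of the pan-leukocyte antigen CD45, was among these. The 4 others were CD14, COL1A1 and PDGFRB, which reached at most 3.83, 3.26 and 1.18 CPM, and the trypsinogen gene PRSS1. PRSS1 was at 17.7, 14.8 and 14.8 CPM in controls and at 13.5, 12.6 and 9.56 CPM after knockdown. These ranges did not overlap and the difference did not pass (edgeR log2 fold change -0.40, 95% confidence interval -0.66 to -0.14, adjusted p = 0.0798). The summed level of the 5 exocrine and endocrine markers, of which 3 were at 0 in every library, was 15.9 to 19.0 FPKM in controls and 10.4 to 14.9 FPKM after knockdown. KRT8 and KRT18 fell after knockdown, and the part of these markers in the values below was not tested.

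The promoters were searched for the E-box that MiT/TFE factors recognise. Promoter sequences of RefSeq (GRCh38.p14, 250 bases before to 50 after the gene start) were matched for 26 of the 37 genes. The words searched on both strands were CACGTG, which reads the same on either strand, and TCACGTG, which contains it. TCACGTG was found in 8 of the 26 promoters (30.8%) and in 755 of 10722 promoters of all tested genes (7.04%). CACGTG was found in the same 8 (30.8%) and in 12.3% of all tested genes. The members were picked by hand, and the part of that choice in the higher share was not tested. A match describes letters only and does not show that a factor bound there. The sites below are 26-base windows on the gene's own strand, 5′ to 3′, shown for each of the 8 genes; capitals mark CACGTG with a T before it or an A after it.

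LAMP1 (chr13:113297201-113297226, plus strand): cccgcgggaTCACGTGAcgcccgggc
CTSD (chr11:1763959-1763984, minus strand): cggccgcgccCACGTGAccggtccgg
CTSA (chr20:45891300-45891325, plus strand): cgccggagtTCACGTGActcgtacac
GAA (chr17:80101495-80101520, plus strand): gaggccgcgTCACGTGAcccaccgcg
NEU1 (chr6:31862932-31862957, minus strand): gctgcgtgaTCACGTGggaggagatg
CLN3 (chr16:28492060-28492085, minus strand): cgggtgctgTCACGTGAtccgacaaa
MCOLN1 (chr19:7522600-7522625, plus strand): gctaccgggTCACGTGAccgaggcac
ATP6V0D1 (chr16:67481201-67481226, minus strand): cccttatggTCACGTGAggcgcttgc

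LAMP1 held 6 such sites, the first starting 192 bases and the last 1 base before the gene start. CTSA, GAA, CLN3 and MCOLN1 held 2 each, and CTSD, NEU1 and ATP6V0D1 held 1 each. In ATP6V0D1 the site lay 59 bases before the start and in CTSD 47 bases before it. None of the 8 genes passed the test between the groups, and their log2 fold changes ran from -0.05 to 0.14 with a median of -0.01. In the other 18 matched genes the median was -0.02 and 1 passed.

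Per unit of gene length, the lysosomal genes were well expressed in control cells. Their median level was 29.3 FPKM (the deposited values per length and depth), against 8.39 FPKM over all tested genes. The level of CTSD, the aspartic protease cathepsin D, was the highest at 242 ± 11.6 FPKM (SD, n = 3), above 98.5% of the tested genes. PSAP, the precursor of the saposins that help lipid hydrolases, followed at 210 ± 10.2 FPKM, a level that differed from that of CTSD by more than the SD of either. LAMP1 stood at 102 ± 5.21 FPKM and GRN, which encodes progranulin, at 94.0 ± 2.37 FPKM. The cysteine protease genes CTSL and CTSB were next to each other at 53.9 ± 4.96 and 51.9 ± 5.56 FPKM and did not differ beyond their spread. In all, 33 of the 37 genes had at least 10 FPKM in controls. The 4 below were ARSA, MCOLN1, SGSH and TFEB, and TFEB was by far the lowest at 0.333 FPKM.

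**Figure D1:**
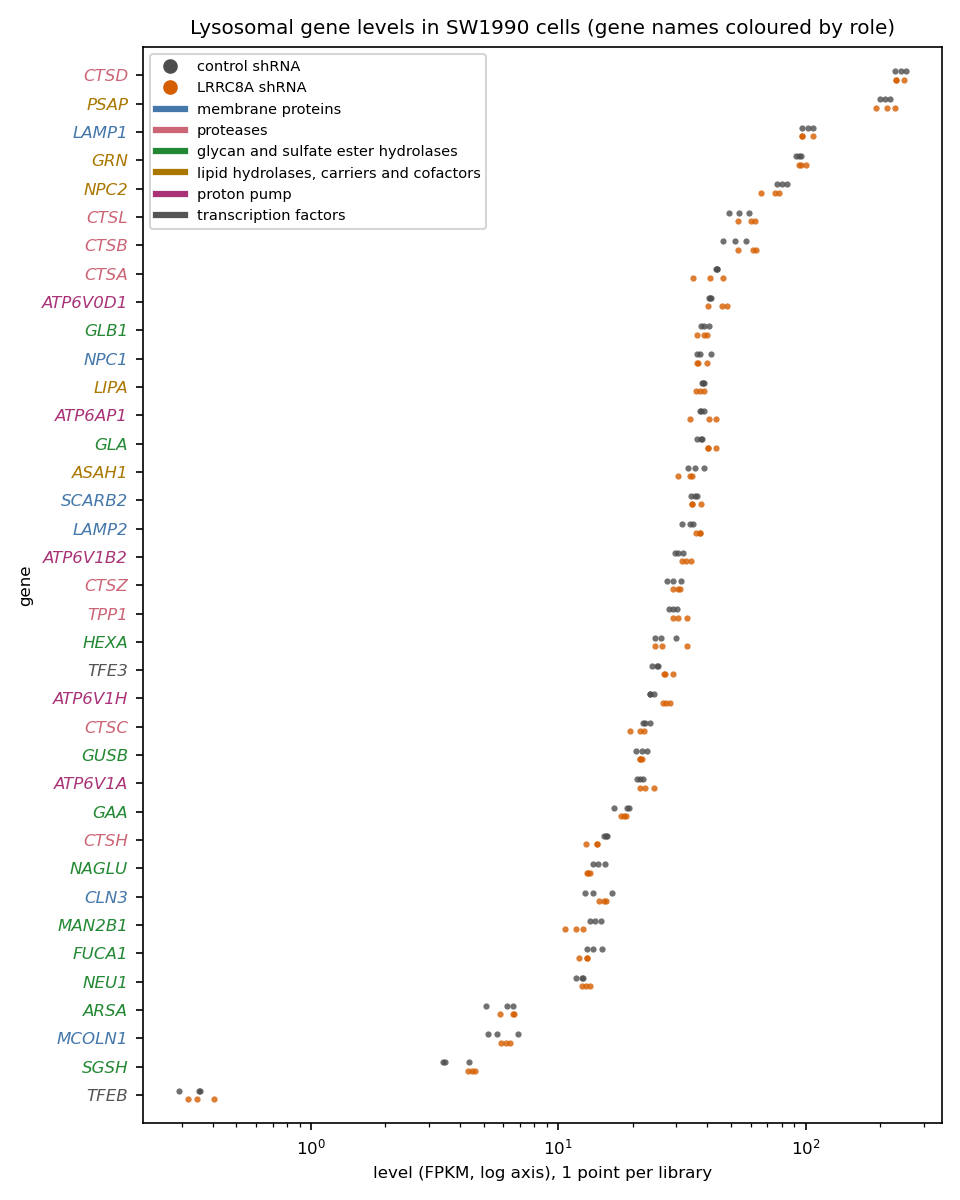
Level of each lysosomal gene in each library in FPKM on a log axis, 1 point per library (grey, control shRNA; orange, LRRC8A shRNA), with genes ordered by their mean in controls and names coloured by role. CTSD and PSAP lead at 242 and 210 FPKM, TFEB lies lowest at 0.333 FPKM, and the points of the 2 groups lie close together for every gene.

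Between LRRC8A shRNA and control shRNA most of these genes differed little. All 37 passed the filter on low counts, and 1 of them, MAN2B1, passed the test, at a lower level in the LRRC8A shRNA libraries. Across the 13551 tested genes 4.35% passed (590 genes, edgeR quasi-likelihood test, Benjamini-Hochberg adjusted p under 0.05), 2.58% lower and 1.77% higher, so 1 of 37 lies near the background. The DESeq2 test called MAN2B1 alone of the 37 and 5.24% of all tested genes, and limma on log2(FPKM + 1) called 0 of the 37 and 1.40% of its genes. With library totals in place of TMM factors the calls over all genes split into 300 higher and 263 lower, against 240 and 350 with TMM. The median log2 fold change was 0.01 in the lysosomal genes and 0.00079 in all tested genes, with 19 values above 0 and 18 below. Both groups of values lay apart in 12 of the 37 genes, 8 lower and 4 higher after LRRC8A knockdown, against 23.6% of all tested genes. An unadjusted p under 0.05 was reached by 11 of the 37 genes, 7 lower and 4 higher, against 18.3% of all tested genes, 9.62% lower and 8.65% higher. RNA of whole cultures was measured, so fewer cells of a kind and less RNA per cell cannot be told apart.

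The intervals give the range of change that the fit of each gene allows. For 33 of the 37 genes the 95% confidence interval of the fold change lay within 1.25-fold in either direction, as it did for 62.4% of all tested genes. These shares were not matched for expression level. The median level in controls was 29.3 FPKM in the 37 genes and 8.39 FPKM in all tested genes, and the median SE was 0.053 and 0.071. The part of level in the higher share was not tested. It lay within 1.5-fold for 36 of the 37, the exception being TFEB. The replicates were close, with a median coefficient of variation of 3.96% in controls and 4.71% in LRRC8A shRNA libraries over the 37 genes. Counts of the 37 genes together made up 0.438% ± 0.0116 of all counts in controls and 0.441% ± 0.0156 in LRRC8A shRNA libraries (SD, n = 3 each), a difference smaller than either SD. With 3 libraries per group the smallest p of an exact permutation test of 1 gene is 0.1, so only the fit across all genes could pass the threshold.

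**Figure D2:**
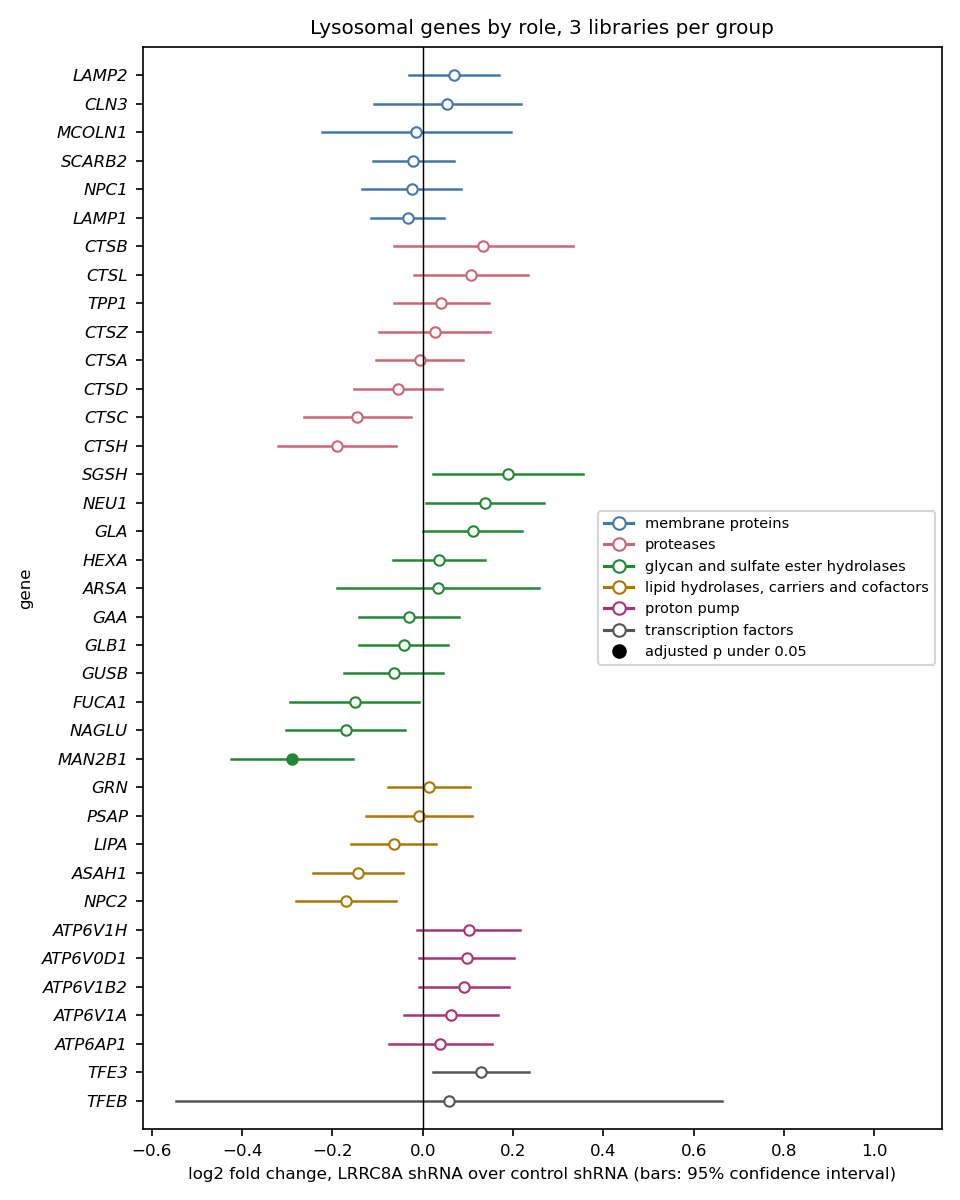
The log2 fold change of each lysosomal gene between LRRC8A shRNA and control shRNA libraries (points) with its 95% confidence interval (bars), in blocks by role; a filled point passed at an adjusted p under 0.05. MAN2B1 at -0.29 holds the only filled point, the 5 proton pump genes all lie right of 0, and TFEB has the widest interval.

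Both transcription factor genes were measured, and neither passed. TFE3 was at 90.4, 94.8 and 96.7 CPM in the control libraries and at 99.3, 110 and 99.0 CPM in the LRRC8A shRNA libraries. Every LRRC8A shRNA library was thus above every control, by a small margin (edgeR log2 fold change 0.13 with SE 0.05, adjusted p = 0.169). Without LRRC8A shRNA replicate 2 the difference was 0.08 (edgeR adjusted p = 0.430). TFEB gave 36, 36 and 31 counts in controls and 39, 35 and 40 counts in LRRC8A shRNA libraries, which overlap. Its log2 fold change of 0.06 had a 95% confidence interval of -0.55 to 0.66, so at this depth the data are compatible with any change in that range. In FPKM, TFE3 made up 94.4% to 95.8% of the summed level of the 4 family members TFE3, TFEB, MITF and TFEC in each library. TFEC was listed at 0 in all 6 libraries, and MITF was at 1.08 ± 0.0583 FPKM in controls and 0.987 ± 0.124 FPKM after knockdown (SD, n = 3 each). At the mRNA level TFE3 is therefore the most abundant of the family in these cells in both groups.

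Of the 6 membrane protein genes 0 passed (edgeR), and 0 had an unadjusted p under 0.05. LAMP1, the most abundant of them, was at 350, 344 and 353 CPM in controls and at 337, 349 and 337 CPM in LRRC8A shRNA libraries. The ranges overlap, and its log2 fold change was -0.03 with a 95% confidence interval of -0.12 to 0.05 (edgeR adjusted p = 0.710). LAMP2, which also serves chaperone-mediated autophagy, was at 144, 138 and 129 CPM against 145, 147 and 139 CPM (edgeR log2 fold change 0.07 with SE 0.05, adjusted p = 0.473). The other 4 were SCARB2, the receptor that carries glucocerebrosidase to lysosomes, the cholesterol exporter NPC1, CLN3, which is mutated in Batten disease, and the calcium channel MCOLN1. Their log2 fold changes ran from -0.02 in NPC1 and SCARB2 to 0.05 in CLN3, and the groups overlapped in each. MCOLN1 was the least abundant at 5.91 ± 0.894 FPKM in controls (SD, n = 3).

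Of the 8 protease genes 0 passed (edgeR), and 2 had an unadjusted p under 0.05 (18.3% over all tested genes), both with lower means after knockdown. CTSD was at 590, 622 and 563 CPM in controls and at 553, 600 and 557 CPM after knockdown, with overlapping ranges (edgeR log2 fold change -0.05 with SE 0.05, adjusted p = 0.592). CTSB, a cysteine protease, was at 151, 148 and 123 CPM in controls and at 159, 162 and 142 CPM after knockdown. Replicate 3 was the lowest library of both groups for CTSB, and its log2 fold change was 0.13 with an SE of 0.09 (edgeR adjusted p = 0.470), or 0.05 without control replicate 3 (0.719). CTSH, an aminopeptidase of the cysteine cathepsins, was at 38.1, 38.4 and 36.9 CPM against 33.9, 34.7 and 31.0 CPM. These ranges did not overlap, but the difference did not pass (edgeR log2 fold change -0.19 with SE 0.06, adjusted p = 0.0964). CTSC, which activates granule serine proteases, had separate ranges too, with the lower one after knockdown and a log2 fold change of -0.14 (SE 0.06, edgeR adjusted p = 0.170). The serine carboxypeptidase CTSA, the cysteine proteases CTSL and CTSZ and the tripeptidyl peptidase TPP1 lay between -0.01 and 0.11.

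Among the 11 genes for enzymes that break glycans and sulfate esters, 1 passed at a lower level and 0 at a higher one (edgeR). An unadjusted p under 0.05 was reached by 6 of the 11, 3 lower and 3 higher, against 18.3% of all tested genes. The groups did not overlap in 7 of the 11, against 23.6% of all tested genes. MAN2B1, the lysosomal alpha-mannosidase that trims N-linked glycans (ENSG00000104774; GRCh38, chromosome 19, 12646511 to 12666742, minus strand), was at 49.9, 54.1 and 51.8 CPM in controls. In LRRC8A shRNA libraries it was at 42.2, 46.3 and 38.9 CPM, so each of them lay below every control library. MAN2B1 fell by 18.2%, with a 95% confidence interval of -25.4% to -10.2% (edgeR log2 fold change -0.29 with SE 0.06, adjusted p = 0.0131). The exact permutation test of its 6 values gave p = 0.1, the smallest possible. With each library left out in turn the call held 3 of 6 times, and not without control replicate 2 (edgeR adjusted p = 0.0752) or LRRC8A shRNA replicate 1 (0.0656) or 3 (0.0643), nor in limma on FPKM (0.111). MAN2B1 shares exon sequence with 2 annotated genes on its own strand, so its count is uncertain to that extent. Of the 37 genes 15 have exons that overlap another annotated gene, 12 on the opposite strand and 9 on their own, some on both. CTSD and NAGLU are among those with an overlap on their own strand.

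The other 10 enzyme genes of this kind pointed both ways. SGSH, the sulfamidase of heparan sulfate breakdown, was at 16.1, 16.4 and 15.5 CPM in controls and at 19.2, 18.1 and 17.5 CPM after knockdown, without overlap. Its log2 fold change was 0.19 with an SE of 0.08 and did not pass (edgeR adjusted p = 0.196); SGSH has exons that overlap genes of the opposite strand. NAGLU, which acts on the same heparan sulfate chains as SGSH, was at 39.4, 41.7 and 36.8 CPM in controls and at 33.9, 35.1 and 35.9 CPM after knockdown. These ranges too were separate, in the other direction, and did not pass (edgeR log2 fold change -0.17 with SE 0.06, adjusted p = 0.141). The sialidase gene NEU1 had a log2 fold change of 0.14 and the alpha-galactosidase gene GLA 0.11, while the alpha-fucosidase gene FUCA1 had -0.15. None of these passed, and their groups did not overlap. The remaining 5, the hydrolase genes GLB1, GAA, GUSB, HEXA and ARSA, lay between -0.06 and 0.04, and of these only GUSB (-0.06) had groups without overlap.

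Of the 5 genes for lipid hydrolases, carriers and cofactors 0 passed (edgeR), and 2 had an unadjusted p under 0.05 (18.3% over all tested genes), both with lower means after knockdown. NPC2, which hands cholesterol to NPC1, was at 97.8, 102 and 95.8 CPM in controls and at 80.7, 92.4 and 89.8 CPM after knockdown. The groups did not overlap, and the log2 fold change of -0.17 (SE 0.05) had an edgeR adjusted p = 0.0786. With each library left out in turn NPC2 passed 1 of 6 times, without LRRC8A shRNA replicate 2 (log2 fold change -0.21, edgeR adjusted p = 0.0439), and its smallest difference was -0.11 without LRRC8A shRNA replicate 1 (edgeR adjusted p = 0.301). ASAH1, the acid ceramidase, was at 94.5, 90.5 and 90.4 CPM against 86.8, 83.0 and 79.6 CPM, without overlap (edgeR log2 fold change -0.14 with SE 0.05, adjusted p = 0.101). GRN was at 227, 234 and 220 CPM against 221, 240 and 227 CPM, which overlap (log2 fold change 0.01, edgeR adjusted p = 0.908). The acid lipase gene LIPA had a log2 fold change of -0.06 and PSAP of -0.01. NPC2 and ASAH1 have exons that overlap genes of the opposite strand.

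The 5 proton pump genes all had log2 fold changes above 0, from 0.04 to 0.10, and 0 passed (edgeR; 0 also at an unadjusted p under 0.05). ATP6V1H, a regulatory subunit of the cytosolic V1 sector, was at 57.4, 55.3 and 61.0 CPM in controls and at 59.2, 64.8 and 62.4 CPM after knockdown. The ranges overlapped (edgeR log2 fold change 0.10 with SE 0.05, adjusted p = 0.340). ATP6AP1, an accessory protein of pump assembly, was at 96.0, 96.0 and 91.7 CPM against 97.0, 105 and 89.3 CPM, with a log2 fold change of 0.04 (SE 0.05, edgeR adjusted p = 0.763), which turned to -0.02 without LRRC8A shRNA replicate 2. The catalytic subunit gene ATP6V1A (0.06), the nucleotide-binding subunit gene ATP6V1B2 (0.09) and ATP6V0D1, of the stalk that joins both sectors (0.10), lay between them. Summed over the 5 genes, the level was 451 ± 5.54 CPM in controls and 476 ± 22.6 CPM after knockdown (SD, n = 3 each). By library the sums were 458, 448 and 448 CPM in controls and 485, 493 and 450 CPM after knockdown. LRRC8A shRNA replicate 3 thus lay within the range of the controls. Of 17 further pump subunit genes tested, 0 passed, 10 had values above 0 and the median log2 fold change was 0.04. An unadjusted p under 0.05 was reached by 7 of the 17, against 18.3% of all tested genes, with 4 values above 0 and 3 below. Those below were TCIRG1 (-0.22), ATP6V1C2 (-0.21) and ATP6AP2 (-0.11), which are named after their values were seen. The smallest p among the 17 was that of ATP6V1C1, a V1 subunit gene (edgeR log2 fold change 0.16 with SE 0.05, adjusted p = 0.0646).

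Within a group the lysosomal genes tended to be high or low in the same libraries. LRRC8A shRNA replicate 2 held the highest value of its group in 24 of the 37 genes, and replicate 3 the lowest in 23. Control replicate 2 held the highest value of its group in 20 of the 37, and control replicate 3 the lowest in 24. Over all tested genes these libraries held that place in 35.8%, 34.9%, 33.6% and 35.3% of genes, in this order. The part of this spread in the differences above was not tested. The median log2 fold change of the 37 genes was 0.014 with all 6 libraries. It was -0.0070 without control replicate 3 and -0.012 without LRRC8A shRNA replicate 2, so its sign depended on the libraries used.

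**Figure D3:**
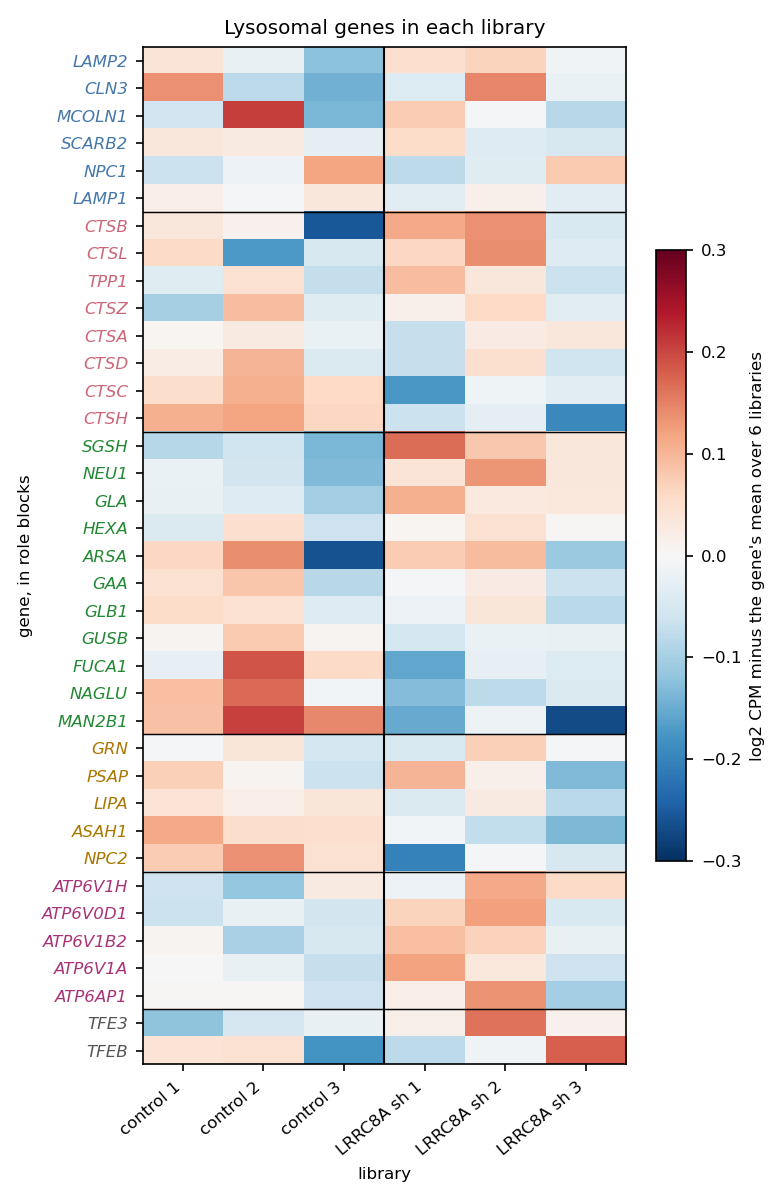
Each cell gives the log2 CPM of a lysosomal gene in a library minus the gene's mean over the 6 libraries (colour scale, red higher, blue lower), with role blocks divided by lines and control libraries left of the vertical line. MAN2B1 is red in the 3 controls and, after knockdown, blue in replicates 1 and 3 and near white in replicate 2, while control replicate 3 and LRRC8A shRNA replicate 3 are blue in many genes, the lowest of their groups in 24 and 23 of 37.

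Wider lists of lysosomal genes, 137 genes in the table of which 130 were tested, held 3 that passed, 2 higher and 1 lower (2.31%, against 4.35% of all tested genes). Those that rose came from a list of 21 tested genes of nutrient sensing at the lysosomal surface. This list, like the others, was chosen with earlier results of these data known. An unadjusted p under 0.05 (edgeR) was reached by 4 of the 21, 2 higher and 2 lower, against 18.3% of all tested genes. The groups did not overlap in 6 of the 21, against 23.6% of all tested genes. FNIP1, the partner of folliculin that acts on Rag GTPases (ENSG00000217128; GRCh38, chromosome 5, 131641714 to 131797063, minus strand), was at 51.8, 47.7 and 45.4 CPM in controls and at 64.6, 59.9 and 62.8 CPM after knockdown. The groups were well apart, and FNIP1 rose by 29.3%, with a 95% confidence interval of 19.0% to 40.5% (edgeR log2 fold change 0.37 with SE 0.06, adjusted p = 0.000775). RRAGC, the Rag GTPase through which folliculin controls TFEB and TFE3 (ENSG00000116954; GRCh38, chromosome 1, 38838198 to 38859823, minus strand), was at 56.9, 51.0 and 55.3 CPM against 68.5, 67.0 and 64.7 CPM. RRAGC rose by 22.7%, with a 95% confidence interval of 13.5% to 32.6% (edgeR log2 fold change 0.29 with SE 0.05, adjusted p = 0.00317). Leaving out any 1 of the 6 libraries ended neither call.

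The promoters of both genes hold the E-box word. Their sites are shown because these were the genes of lysosomal nutrient sensing that rose, a choice made after their values were seen.

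FNIP1 (chr5:131797096-131797121, minus strand): cgcgcgccgcCACGTGAtgcggcccc
RRAGC (chr1:38859869-38859894, minus strand): gtgattccggCACGTGAcggggcacc

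FNIP1 held 2 such sites, 175 and 94 bases before the gene start, and RRAGC held 1, 112 bases before it. Of 99 tested genes of the wider lists with a promoter sequence, 26 (26.3%) held TCACGTG, and of these only FNIP1 and RRAGC passed. The promoters of CST3, the gene of the wider lists that fell, and of MAN2B1 hold neither word, as is the case for most promoters searched. The part of the E-box words in any of these differences was not tested. The annotated 3′ UTR of RRAGC also holds GTGTCAC, which occurs in 10.8% of the tested genes whose 3′ UTR is annotated; of the 37 lysosomal genes, GAA and HEXA hold it. The word was chosen with earlier results of these data known. Its part in the RRAGC result was not tested. FNIP1 does not hold it. Both genes share exon sequence with an annotated gene on their own strand.

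The gene that fell was CST3, which encodes cystatin C, a secreted inhibitor of cysteine cathepsins. CST3 was at 125, 119 and 112 CPM in controls and at 104, 107 and 96.5 CPM after knockdown, without overlap (edgeR log2 fold change -0.21 with SE 0.05, adjusted p = 0.0219). With each library left out in turn it passed 2 of 6 times: its edgeR adjusted p was 0.144 and 0.0799 without control replicate 1 or 2, and 0.0608 and 0.0884 without LRRC8A shRNA replicate 1 or 3. In limma on log2(FPKM + 1) it did not pass either (adjusted p = 0.169). CST3 was 1 of 4 tested cathepsin inhibitor genes, of which 3 had log2 fold changes below 0 and 1 above, with a median of -0.24. An unadjusted p under 0.05 was reached by 2 of the 4, both lower, and the groups did not overlap in 3. Of 35 further hydrolase and cofactor genes 0 passed (4 at an unadjusted p under 0.05), led by the folate hydrolase gene GGH (log2 fold change -0.14, edgeR adjusted p = 0.0908). Of 25 further membrane proteins and transporters 0 passed (2 at an unadjusted p under 0.05), with the smallest p in the peptide transporter gene ABCB9 (0.35, edgeR adjusted p = 0.182). In limma on log2(FPKM + 1) the log2 fold change of ABCB9 was 0.10 (adjusted p = 0.710). Of 15 genes of enzyme sorting 0 passed (5 at an unadjusted p under 0.05, 3 higher and 2 lower), the nearest being SUMF1, which activates sulfatases (-0.23, edgeR adjusted p = 0.0549). Of 13 genes of lysosome fusion and movement 0 passed (6 at an unadjusted p under 0.05, 5 higher and 1 lower). The nearest was VPS33A, of the tethering complex HOPS (0.20, edgeR adjusted p = 0.0560). In 7 of these 13 the groups did not overlap. Over all tested genes 18.3% had an unadjusted p under 0.05, and the groups did not overlap in 23.6%. Exons of ABCB9 and SUMF1 overlap annotated genes of the opposite strand, and those of VPS33A overlap an annotated gene on its own strand.

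**Figure D4:**
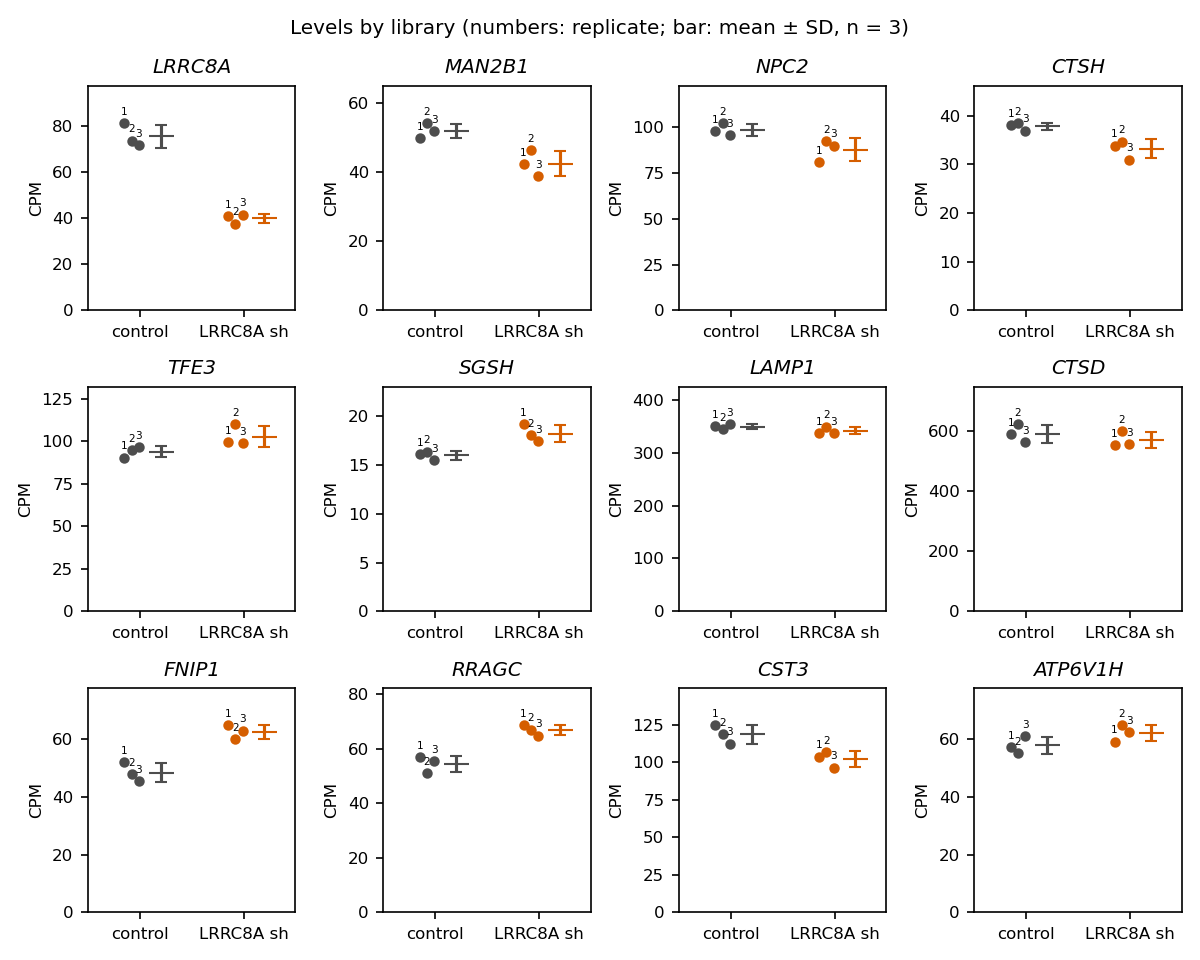
Levels in CPM (axes from 0) of LRRC8A and 11 genes of the text in each library, with replicate numbers and mean ± SD of 3 libraries beside the points (grey, control shRNA; orange, LRRC8A shRNA). LRRC8A falls to 40.1 CPM, FNIP1 and RRAGC lie higher and MAN2B1 and CST3 lower in all 3 LRRC8A shRNA libraries, and LAMP1 and CTSD overlap between the groups.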

How the data were processed

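The tools named are StringTie 2.2.3, HISAT2 2.2.1 and fastp 0.23.2, per the submitters' processing notes, which also name the builds GRCh38 and mm10 with no role. The deposited counts are raw reads per protein-coding gene; how they were counted, and whether by strand, is not given in the sources used here. The deposited FPKM values are per length of gene and per depth, as the authors computed them, and the deposited TPM values, scaled to a fixed sum, were not used.

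Counts were filtered with filterByExpr, scaled with TMM factors and tested by the quasi-likelihood method in edgeR 4.0.16 (R 4.3.3), two-sided, adjusted over 13551 genes. CPM values use the TMM factors. The SE is the log2 fold change divided by the square root of F. The test was also run on simulated counts with known changes. All of these were larger than any log2 fold change of the 37 lysosomal genes, so that run does not bear on changes of their size.

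Genes named with full values were those past the threshold, the 6 with the smallest p, the highest and lowest log2 fold change of each role and 6 set genes; each wider list gave the genes that passed, or the 1 with the smallest p. Members and lists were chosen with earlier results of these data known. Positions and exon overlaps come from GENCODE 29 (GRCh38). Other settings tried were the replicate number as a block, leaving out each library, DESeq2 size factors, library totals, DESeq2 1.42.0, no filter, an adjusted p of 0.01, and limma 3.58.1 with a trend on log2(FPKM + 1), limited to genes that reached 1 FPKM in 3 libraries, with a pseudocount of 0.1 or no filter.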

Additional observations from a re-analysis of the deposited data

How the results depend on the processing

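The 590 changed genes became 246 to 504 when 1 library was left out, 157 in limma on log2(FPKM + 1), 154 with a pseudocount of 0.1, 18 without the FPKM filter and 222 at an adjusted p of 0.01. The number of lysosomal genes that passed was 0 to 2 with 1 library left out, 0 in each of these limma fits and 0 at an adjusted p of 0.01; DESeq2, its size factors, library totals and no filter on low counts each kept MAN2B1 alone. The wider lists gave 2 to 8 with 1 library left out (8 without LRRC8A shRNA replicate 3), 5 in DESeq2, 6 with library totals, 7 without a filter on low counts, 2 in both limma fits with the FPKM filter and 0 in limma without it. CST3 passed in no limma fit (adjusted p of 0.169 to 0.269), and FNIP1 and RRAGC failed in that last fit alone (adjusted p of 0.0908 and 0.112). The median log2 fold change of the 37 genes ran from -0.01 to 0.04 over all settings. With 1 library left out, the sign turned for GRN (-0.0189 to 0.0397; -0.0046 without control replicate 3 and the lowest without LRRC8A shRNA replicate 2), TFEB (-0.0181 to 0.113; -0.0070 without control replicate 3 and the lowest without LRRC8A shRNA replicate 3) and ATP6AP1 (-0.0208 to 0.0964; the lowest without LRRC8A shRNA replicate 2), none of which had passed. The log2 fold changes of CTSD (-0.09 to -0.02), LAMP1 (-0.05 to -0.02), LAMP2 (0.03 to 0.11) and ATP6V1H (0.07 to 0.15) kept their sign and did not pass. The cause of these shifts was not tested. Over all tested genes, equal replicate numbers did not deviate together (correlations of 0.03, -0.09 and 0.01), and libraries did not all correlate best with their own number. In the 37 genes, however, replicate 2 was most often the highest and replicate 3 most often the lowest in both groups. With the replicate number as a block, 671 genes, 1 of the 37 and 5 of the wider lists passed. The SE of CTSB was then 0.04 in place of 0.09 (edgeR adjusted p = 0.0744 in place of 0.470). Depth limits TFEB, at 31 to 40 counts per library.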

Other observations

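LAMP3, a lysosomal membrane protein gene of restricted expression, varied more than its relatives and is named after its values were seen. It was at 21.5, 17.6 and 18.8 CPM in control libraries and at 36.4, 30.0 and 20.0 CPM in LRRC8A shRNA libraries. Replicate 3 of the LRRC8A shRNA group lay within the range of the controls, and the other two lay above every control. The log2 fold change of 0.58 (SE 0.26) did not pass (edgeR adjusted p = 0.354). With each library left out in turn it passed 1 of 6 times, without LRRC8A shRNA replicate 3 (0.78, edgeR adjusted p = 0.00116). In the other 5 fits the edgeR adjusted p was 0.466 to 0.591, and without LRRC8A shRNA replicate 1 the log2 fold change was 0.37. LAMP1 ran from 337 to 349 CPM and LAMP2 from 139 to 147 CPM over the LRRC8A shRNA libraries.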
